A study of Mus musculus with 18 samples.

Results

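Cish and Socs1 to Socs7 are the 8 mouse genes of the suppressor of cytokine signalling family, and they were taken by name from a table of 55536 gene identifiers. The choice used no measured value. Each gene was matched by its Ensembl identifier to 1 symbol of the GENCODE M21 annotation of GRCm38, and all 8 had enough reads to be tested. Family members share an SH2 domain, which binds phosphorylated tyrosine, and a SOCS box, which recruits elongins B and C and cullin 5 into a ubiquitin ligase. CIS (from Cish), SOCS1, SOCS2 and SOCS3 are known as feedback inhibitors: cytokine receptors activate JAK kinases and STAT factors, STATs induce these genes, and the proteins then dampen the same receptors. SOCS4 to SOCS7 are less tied to cytokine feedback and have been linked to receptor tyrosine kinases and adaptor proteins.

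RNA was sequenced from CD4 T cells of C57BL/6 mice in 18 libraries, 3 for each of 6 groups, and every group carried OTII, a transgenic T cell receptor for an ovalbumin peptide. The 4 peripheral groups were OTII cells, W131AOTII cells, Cbl-b-/- OTII cells and, with both changes, Cbl-b-/-W131AOTII cells, taken from spleen and lymph nodes and sorted as naive (low for CD44, bearing CD62L) Va2+ cells without surface CD25. The 2 thymic groups were OTII and W131AOTII single-positive thymocytes with CD4 and Va2 but no CD25. W131A is a substitution in the kinase ZAP-70, and its mice are labelled as an encoded model of anergy, a state of T cell unresponsiveness. Cbl-b is a ubiquitin ligase that restrains T cell activation, and the series asks which pathways it controls in anergy. Per the labels, mice numbered 3 for OTII, 12 for W131AOTII (4 to a group), 3 for Cbl-b-/- and, with both changes, 6 (2 to a group), so some libraries may pool animals. No source used here maps mice to libraries or names age, sex or the exact Cblb allele. The p-values therefore measure only the spread between these libraries, which may be technical.

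The promoters of 3 members are shown because STAT factors bind short palindromes near the starts of the inducible members. RefSeq windows (GRCm38.p6, 250 bases before to 50 bases after a start) were found for 4 of the 8 genes, Cish, Socs1, Socs3 and Socs4. Each was searched on both strands for TTCNNNGAA, the core of STAT sites, which reads the same on either strand, and for the core of interferon-stimulated elements, which is GAAA, then any 2 bases, then GAAA. Capitals mark the matches.
Cish, chr9:107296654-107296683, plus strand: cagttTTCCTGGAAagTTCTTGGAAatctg
Socs3, chr11:117969452-117969616, minus strand: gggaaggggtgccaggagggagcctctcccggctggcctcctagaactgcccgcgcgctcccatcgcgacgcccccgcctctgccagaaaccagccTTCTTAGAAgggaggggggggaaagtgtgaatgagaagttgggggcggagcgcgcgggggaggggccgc
Socs1, chr16:10785537-10785786, minus strand: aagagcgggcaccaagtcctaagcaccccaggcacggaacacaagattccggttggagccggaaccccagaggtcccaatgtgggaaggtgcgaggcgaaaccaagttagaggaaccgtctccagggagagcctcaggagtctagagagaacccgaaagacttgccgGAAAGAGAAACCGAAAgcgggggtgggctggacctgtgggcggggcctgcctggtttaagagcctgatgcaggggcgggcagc
The Cish window held 2 TTCNNNGAA matches, at chr9:107296659-107296667 and chr9:107296670-107296678, both inside exon sequence of the GENCODE transcript Cish-201. The Socs3 window held 1, 154 bases before the RefSeq start, within the longer GENCODE gene but outside its exons. The Socs1 window held no TTCNNNGAA and 2 matches to the interferon core, which overlap by their shared GAAA and start 83 and 77 bases before the gene's start. The Socs4 window held neither motif, and Cish and Socs3 held no interferon core. Of 32851 such windows, 8.3% held TTCNNNGAA at least once and 0.457% held 2 or more matches. The interferon core was in 3.44% of the windows, with 2 or more matches in 0.225%. A match is a run of letters and was not tested as a binding site.

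Library totals ran from 19708218 to 36218772 counts, and replicates differed by more than counting noise, so none was a duplicate. Component 1 of the 500 most variable genes held 69.8% of the variance and separated thymus from periphery. W131AOTII replicate 2 stood apart on component 2 and held B cell marker transcripts at a summed 5104 CPM (a count divided by the TMM-scaled library total), against 1638 to 2554 CPM in the other peripheral libraries. Together with Cbl-b-/- OTII replicate 2 and thymic OTII replicate 3, set apart in earlier results of these data, it was left out in 1 alternative. Cblb was at 51.0 to 90.5 CPM in Cbl-b-/- OTII against 122 to 142 CPM in OTII libraries (log2 fold change -0.89, edgeR quasi-likelihood adjusted p = 0.0060). It was at 82.8 to 111 CPM in Cbl-b-/-W131AOTII against 146 to 177 CPM in W131AOTII libraries (-0.76, adjusted p = 0.0142, or 0.0550 without either of Cbl-b-/-W131AOTII replicates 2 and 3). Counts cover the whole gene and do not show which exons the reads came from. The source of the remaining Cblb reads was not tested, and the W131A substitution cannot be read from counts. The defining markers of CD4 T cells, such as Cd3e and Cd4, summed to 6835 to 11059 CPM in every group. A summed list of 12 regulatory T cell markers, added after the results were known, rose across groups with some members and is given beside them. In bulk RNA, fewer cells that express a gene and less of its RNA per cell cannot be told apart.

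Per exon length, Socs3 was the most abundant member in 5 of the 6 groups. Its mean level was 138 RPKM (CPM divided by kilobases of exon) in peripheral OTII cells. It was 233 RPKM with W131A, 98.7 RPKM without Cbl-b and 155 RPKM with both changes. Thymic OTII cells were the exception, where Socs1 at 28.3 RPKM stood above Socs3 at 18.2 RPKM. Socs1 came next elsewhere, at 15.8 RPKM in OTII to 29.6 RPKM in Cbl-b-/- OTII cells, and Cish followed in every group, from 2.20 RPKM in thymic OTII to 6.51 RPKM in Cbl-b-/-W131AOTII cells. Socs4, Socs5 and Socs6 lay between 1.14 and 1.84 RPKM in all groups. Socs2 was the least abundant in 5 groups, from 0.0494 RPKM in thymic OTII to 0.482 RPKM in W131AOTII cells, and in Cbl-b-/-W131AOTII cells it reached 0.810 RPKM and passed Socs7 at 0.497 RPKM. The exon length joins all annotated transcripts, so a gene with retained-intron transcripts such as Cish has a lowered RPKM.

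**Figure D1:**
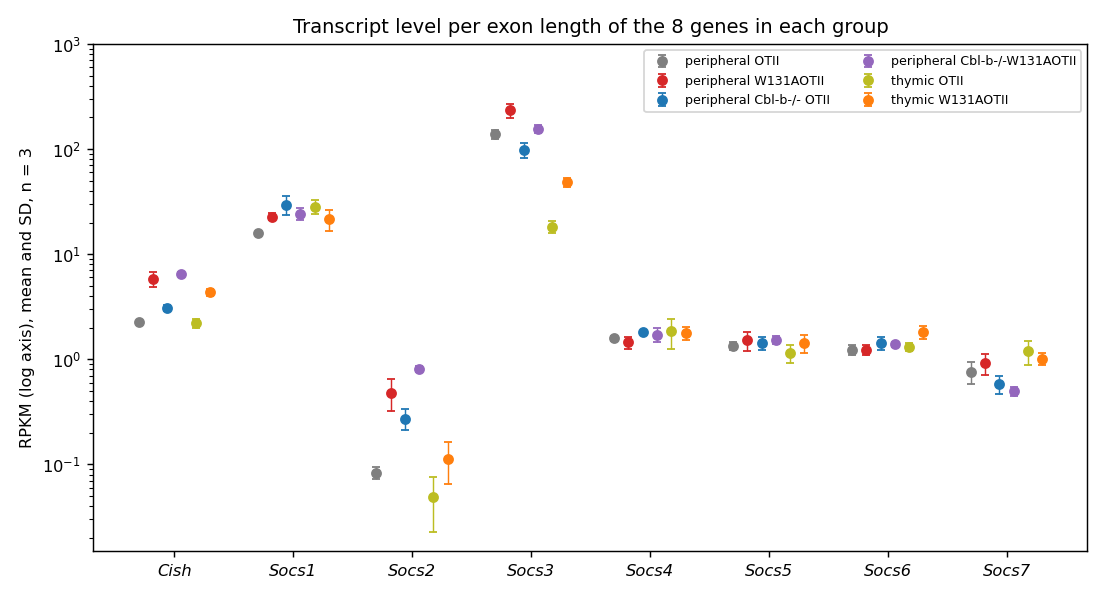
Mean RPKM (log axis) with the SD of 3 libraries for each of the 8 genes, coloured by group. Socs3 runs from 18.2 RPKM in thymic OTII to 233 RPKM in W131AOTII cells, while Socs4, Socs5 and Socs6 stay between 1.14 and 1.84 RPKM.

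Cish, Socs2 and Socs3 rose with W131A in the periphery, and Socs4, Socs5 and Socs6 did not pass the test in any comparison between genotypes. A gene is called where the edgeR quasi-likelihood test gave a Benjamini-Hochberg adjusted p under 0.05 over all 15204 genes tested. In W131AOTII against OTII cells 3 of the 8 members rose and 0 fell, where 1.93% of all tested genes were called (1.68% higher, 0.250% lower). In Cbl-b-/- OTII against OTII cells Socs1 and Socs2 rose and Socs3 fell, against 8.21% of all genes called (5.22% higher, 2.99% lower). In Cbl-b-/-W131AOTII against W131AOTII cells Socs3 and Socs7 fell and 0 rose, against 9.25% of all genes (3.18% higher, 6.08% lower). In Cbl-b-/-W131AOTII against Cbl-b-/- OTII cells Cish, Socs2 and Socs3 rose again, against 1.89% of all genes (0.802% higher, 1.09% lower). With both changes against OTII cells Cish, Socs1 and Socs2 rose, against 7.39% of all genes (3.87% higher, 3.52% lower). In the thymus Cish and Socs3 rose with W131A, against 2.77% of all genes (1.73% higher, 1.04% lower). Comparisons that share a group are not independent of each other.

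**Figure D2:**
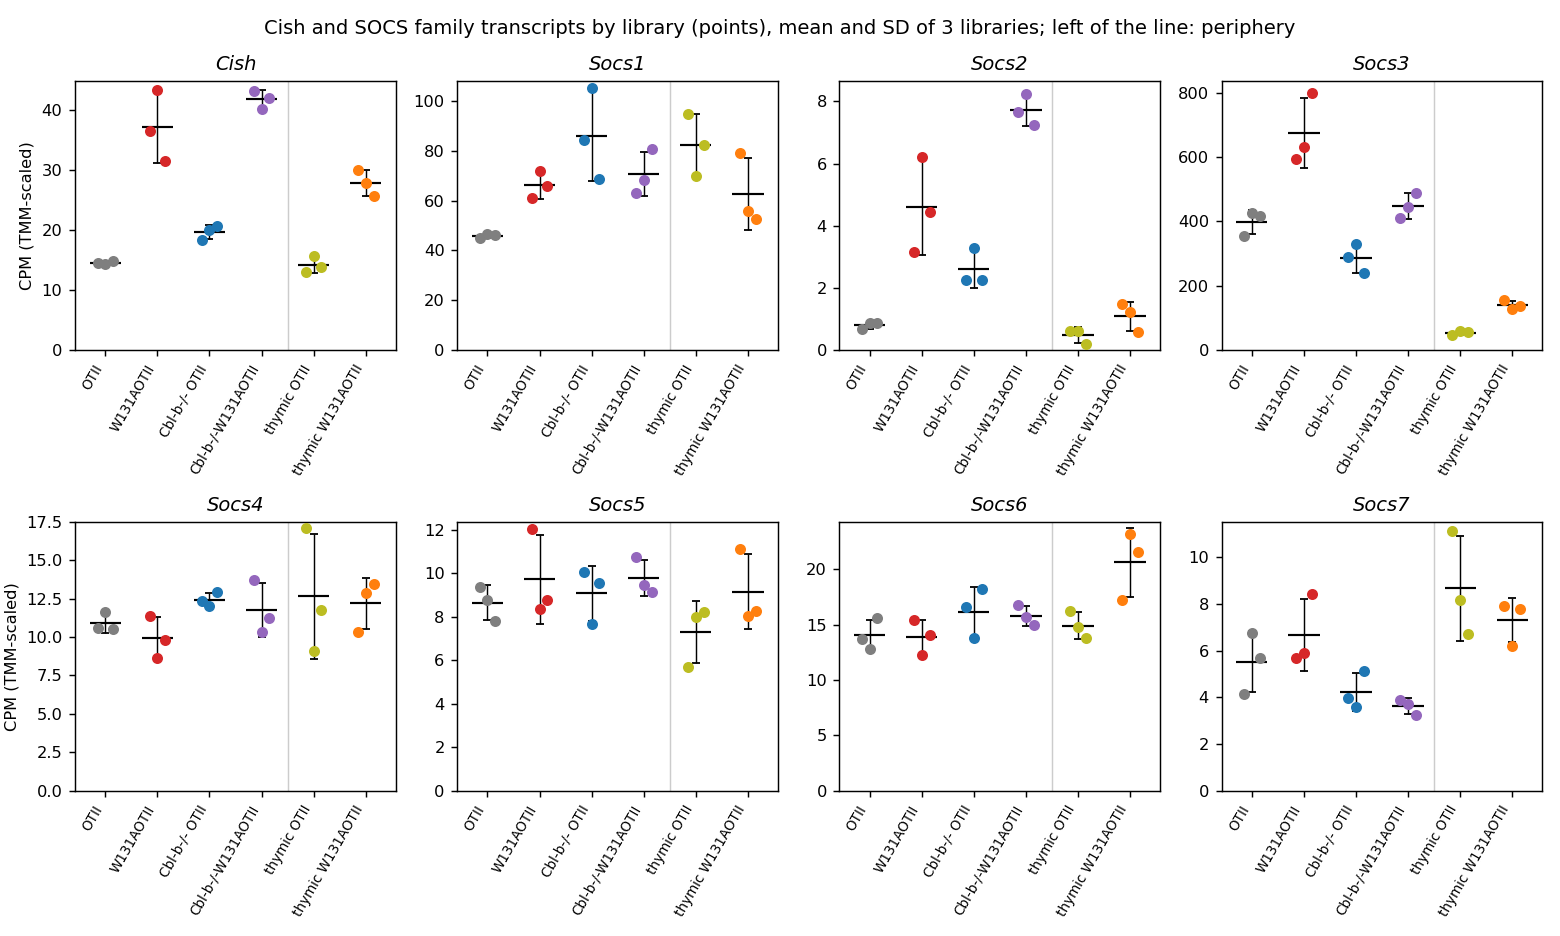
CPM of the 8 genes in each of 18 libraries (points), with the mean and SD of each group of 3; axes start at 0, and thymic groups are right of the line. Cish sits at 31.5 to 43.3 CPM in both peripheral W131A groups, above every library of the other groups.

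Cish (ENSMUSG00000032578, chromosome 9, 107296026 to 107302784, plus strand) encodes CIS, a STAT5-induced inhibitor of IL-2 signalling that is also known to restrain T cell receptor signalling. Its level was 14.5, 14.4 and 14.8 CPM in OTII replicates 1 to 3 and 36.5, 43.3 and 31.5 CPM in W131AOTII replicates. Every W131AOTII library was more than 2-fold above every OTII library. The log2 fold change was 1.35 (SE 0.14, adjusted p = 9.07e-06). Cbl-b-/- OTII replicates were at 18.3, 19.9 and 20.7 CPM, all above the OTII libraries by a smaller step (0.44, SE 0.14), and this missed the threshold (adjusted p = 0.0541). Over the 15 alternatives that adjusted p ran from 0.0066 to 0.2533, and the gene passed with DESeq2 (0.0176) and with GC and length offsets (0.0066).

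With both alleles, Cish was at 43.1, 40.2 and 42.0 CPM in Cbl-b-/-W131AOTII replicates. These overlapped the W131AOTII libraries (log2 fold change 0.17, 95% interval -0.12 to 0.46, adjusted p = 0.4275) and did not overlap the Cbl-b-/- OTII libraries (1.09, SE 0.14, adjusted p = 1.23e-04). In the thymus Cish was at 13.0, 15.6 and 13.8 CPM in OTII and 30.0, 27.8 and 25.6 CPM in W131AOTII replicates, again without overlap (0.98, SE 0.14, adjusted p = 2.96e-04). Peripheral and thymic OTII libraries overlapped (0.04, 95% interval -0.26 to 0.34), so Cish did not separate the tissues in that genotype. The 4 W131A calls of Cish, which include Cbl-b-/-W131AOTII against OTII cells (1.52, SE 0.14, adjusted p = 1.62e-06), held in all 15 alternatives of each comparison. Peripheral W131AOTII exceeded thymic W131AOTII cells by 0.42 (SE 0.13, adjusted p = 0.0351), a call that was lost in 8 of 15 alternatives, in a range of 0.0063 to 0.1855. Leaving out peripheral W131AOTII replicate 1 gave 0.0542 and replicate 2 gave 0.1855, and leaving out thymic W131AOTII replicate 2 gave 0.0631 and replicate 3 gave 0.1019. Against 291 to 297 CPM in OTII libraries, the summed regulatory T cell markers were at 785 to 885 CPM with W131A, 440 to 690 CPM without Cbl-b and 846 to 951 CPM with both changes. In the thymus they were at 415 to 505 CPM in OTII and 475 to 675 CPM in W131AOTII libraries. Of the 12, 11 rose with W131A in the periphery, against 1.93% of all genes called. In the thymus 4 rose and 1 fell, against 2.77%. With Cbl-b loss in OTII cells 6 rose (8.21% of all genes called), and with W131A in cells without Cbl-b 6 rose (1.89%). With both changes against OTII cells 11 rose (7.39%). The part of these markers in the Cish, Socs1, Socs2 and Socs3 results was not tested.

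Socs2 (ENSMUSG00000020027, chromosome 10, 95385362 to 95417180, minus strand) encodes a STAT5-induced inhibitor best known for restraining growth hormone signalling. It had 4 to 262 counts in a library and had the largest called fold change between genotypes. Its level was 0.668, 0.855 and 0.861 CPM in OTII, 3.15, 6.20 and 4.43 CPM in W131AOTII, and 2.25, 3.27 and 2.25 CPM in Cbl-b-/- OTII replicates. All libraries of both altered groups were above all OTII libraries, and the altered groups overlapped each other. The log2 fold change was 2.52 with W131A (SE 0.39, adjusted p = 7.15e-04). It was 1.70 with Cbl-b loss (SE 0.39, adjusted p = 0.0142), where leaving out OTII replicate 1, 2 or 3 raised the adjusted p to 0.0517, 0.0541 or 0.0786 and leaving out Cbl-b-/- OTII replicate 2 raised it to 0.0586, in a range of 4.08e-04 to 0.0786.

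Socs2 was highest in Cbl-b-/-W131AOTII replicates, at 7.68, 8.25 and 7.23 CPM, above every library of every other group. Against OTII cells this was a log2 fold change of 3.27 (SE 0.39, adjusted p = 4.07e-05), and this call and the W131A call in the periphery held in all 15 alternatives. Against Cbl-b-/- OTII cells it was 1.57 (SE 0.36, adjusted p = 0.0266). Leaving out Cbl-b-/- OTII replicate 1 raised it to 0.1006, and leaving out Cbl-b-/-W131AOTII replicate 1, 2 or 3 raised it to 0.0735, 0.0902 or 0.0669, in a range of 4.31e-04 to 0.1006. Against W131AOTII cells it was 0.75 (95% interval -0.01 to 1.51, adjusted p = 0.1707) although no libraries overlapped. Thymic levels were 0.613, 0.622 and 0.176 CPM in OTII and 1.47, 1.21 and 0.567 CPM in W131AOTII replicates, which overlapped (1.18, SE 0.42, adjusted p = 0.1567). Peripheral W131AOTII exceeded thymic W131AOTII cells by 2.08 (SE 0.38, adjusted p = 5.09e-04), and the same step in OTII cells was 0.73 (SE 0.43, adjusted p = 0.2756).

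Socs3 (ENSMUSG00000053113, chromosome 11, 117966079 to 117970047, minus strand) encodes the STAT3-induced inhibitor of the IL-6 receptor chain gp130. Its level was 355, 425 and 416 CPM in OTII and 595, 631 and 800 CPM in W131AOTII replicates. Cbl-b-/- OTII replicates were lower, at 289, 328 and 239 CPM, and Cbl-b-/-W131AOTII replicates were at 409, 446 and 490 CPM. No library of W131AOTII or Cbl-b-/- OTII cells overlapped the OTII libraries, and the cells with both alleles did. Socs3 rose by 0.76 on the log2 scale with W131A (SE 0.15, adjusted p = 0.0060), a call held in all 15 alternatives. With W131A in cells without Cbl-b the log2 fold change was 0.65 (SE 0.15, adjusted p = 0.0218). Leaving out Cbl-b-/- OTII replicate 1 raised it to 0.0615, and leaving out Cbl-b-/-W131AOTII replicate 2 or 3 raised it to 0.0589 or 0.0945, in a range of 5.68e-04 to 0.0945.

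Socs3 fell with loss of Cbl-b in both backgrounds. The log2 fold change was -0.48 in OTII (SE 0.15, adjusted p = 0.0471) and -0.59 in W131AOTII cells (SE 0.15, adjusted p = 0.0214). The first lies near the threshold and was lost in 9 of 15 alternatives, in a range of 0.0164 to 0.1572. Its adjusted p was 0.1300 when OTII replicate 2 was left out, 0.1572 for OTII replicate 3, 0.0854 for Cbl-b-/- OTII replicate 1, 0.1097 for Cbl-b-/- OTII replicate 3 and 0.0735 for the 3 libraries set apart. The second was 0.1124 when W131AOTII replicate 3 was left out, 0.1021 for Cbl-b-/-W131AOTII replicate 1, 0.0515 for its replicate 2 and 0.0522 for the 3 libraries, in a range of 0.0019 to 0.1124. Cbl-b-/-W131AOTII and OTII cells differed by 0.17 (95% interval -0.14 to 0.49, adjusted p = 0.5013).

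Socs3 was the member that separated periphery from thymus most. Thymic OTII replicates were at 45.0, 57.9 and 55.1 CPM and thymic W131AOTII replicates at 154, 129 and 138 CPM. The 2 thymic groups did not overlap each other or any peripheral library. With W131A in the thymus Socs3 rose by 1.41 (SE 0.15, adjusted p = 1.14e-05). In that comparison, which also held the thymic rise of Cish, 4 of 5 erythroid markers were higher (3.90 to 33.2 against 0.395 to 0.802 summed CPM) and 2 of 7 naive T cell markers were lower (6473 to 8101 against 8669 to 9162 summed CPM), and their part in it was not tested. Periphery against thymus gave 2.92 in OTII (SE 0.16, adjusted p = 2.68e-10) and 2.27 in W131AOTII cells (SE 0.15, adjusted p = 5.22e-09), and these calls and the thymic W131A call of Socs3 held in 15 of 15 alternatives. In those tissue comparisons 18.3% (7.75% higher, 10.6% lower) and 19.2% (8.07% higher, 11.2% lower) of all genes were called, and of the 8 members Socs1 and Socs3 were called in OTII and Cish, Socs2, Socs3 and Socs6 in W131AOTII cells. B cell markers moved with the tissue, 8 of 9 higher in the periphery in OTII and 9 of 9 in W131AOTII cells (652 to 955 summed CPM in thymic libraries). Immature thymocyte markers were lower in the periphery for 5 of 6 genes in both comparisons (232 to 398 summed CPM in peripheral and 895 to 1487 in thymic libraries). NK cell markers were lower for 3 of 6 genes in OTII and 2 of 6 in W131AOTII cells (26.4 to 139 against 205 to 676 summed CPM in those libraries). Erythroid markers were lower for 5 of 5 genes in W131AOTII and 0 of 5 in OTII cells, and naive T cell markers were higher for 3 of 7 in OTII and 5 of 7 in W131AOTII cells. The part of these markers in the tissue differences was not tested.

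Socs1 (ENSMUSG00000038037, chromosome 16, 10782240 to 10785536, minus strand) encodes an inhibitor of interferon and IL-2 receptor signalling. OTII replicates were the lowest peripheral libraries and lay close together, at 45.1, 46.5 and 46.4 CPM. They were at 61.2, 72.0 and 65.9 CPM in W131AOTII replicates and at 84.3, 105 and 68.9 CPM in Cbl-b-/- OTII replicates. Cells with both changes were at 63.3, 68.4 and 80.8 CPM. All libraries of the 3 altered groups were above the OTII libraries, and each of the 3 overlapped the next. Socs1 rose by 0.90 with loss of Cbl-b in OTII cells (SE 0.17, adjusted p = 0.0055), a call held in all 15 alternatives, the highest adjusted p being 0.0486. Against OTII cells it rose by 0.62 in Cbl-b-/-W131AOTII cells (SE 0.17, adjusted p = 0.0324), but the adjusted p was 0.0551 to 0.1125 when any 1 of OTII replicates 1, 2 and 3 or Cbl-b-/-W131AOTII replicates 1, 2 and 3 was left out. With W131A it was 0.53 higher without passing (SE 0.17, adjusted p = 0.1638), in a range of 0.0066 with only the groups compared to 0.4920. Among W131AOTII cells, loss of Cbl-b gave 0.10 (95% interval -0.27 to 0.46, adjusted p = 0.7651).

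In the thymus the OTII libraries had the higher mean level of Socs1. Thymic OTII replicates, at 94.7, 69.8 and 82.5 CPM, all exceeded the peripheral OTII libraries, and periphery against thymus gave -0.84 (SE 0.17, adjusted p = 0.0016, at most 0.0080 in 15 alternatives). Thymic W131AOTII replicates were at 79.2, 55.9 and 52.7 CPM and overlapped thymic OTII (-0.40, SE 0.17, adjusted p = 0.2470) and peripheral W131AOTII libraries (0.08, 95% interval -0.29 to 0.45).

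Socs4 (ENSMUSG00000048379, chromosome 14), Socs5 (ENSMUSG00000037104, chromosome 17), Socs6 (ENSMUSG00000056153, chromosome 18) and Socs7 (ENSMUSG00000038485, chromosome 11) varied less. In the order of group means, every pair of neighbouring groups overlapped for each of these 4 genes. Socs4 lay between 8.61 and 17.1 CPM over all 18 libraries, with log2 fold changes of -0.30 to 0.25 in the 8 comparisons between groups. Socs5, linked to epidermal growth factor receptor degradation, lay between 5.66 and 12.0 CPM, with 0.01 to 0.32. Neither was called in any comparison or alternative, and their 95% intervals with W131A in the periphery were -0.58 to 0.31 for Socs4 and -0.28 to 0.62 for Socs5.

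Socs6, linked to degradation of the kinases LCK and KIT, was at 17.2, 23.2 and 21.5 CPM in thymic W131AOTII replicates and at 12.3 to 18.2 CPM in all other libraries. In peripheral against thymic W131AOTII cells it fell by 0.57 (SE 0.16, adjusted p = 0.0162), which was 0.1145 when peripheral W131AOTII replicate 2 was left out, 0.0820 for thymic W131AOTII replicate 2 and 0.0688 for thymic W131AOTII replicate 3, in a range of 0.0033 to 0.1145. Thymic W131AOTII against OTII libraries did not overlap, at 0.47 (SE 0.16, adjusted p = 0.1409). Socs7, linked to insulin receptor substrates and NCK adaptors, was at 3.90, 3.70 and 3.23 CPM in Cbl-b-/-W131AOTII and 5.67, 5.88 and 8.44 CPM in W131AOTII replicates, without overlap. It fell by 0.88 there (SE 0.25, adjusted p = 0.0352), and this was lost in 9 of 15 alternatives. Those included every left-out library but W131AOTII replicate 1: leaving out W131AOTII replicate 2 or 3 gave 0.0785 or 0.1848, and leaving out Cbl-b-/-W131AOTII replicate 1, 2 or 3 gave 0.1127, 0.0833 or 0.1011, in a range of 0.0078 to 0.1848. In that comparison 8 of 9 B cell markers were lower in Cbl-b-/-W131AOTII cells (1638 to 1793 against 2282 to 5104 summed CPM), and their part in it was not tested.

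**Figure D3:**
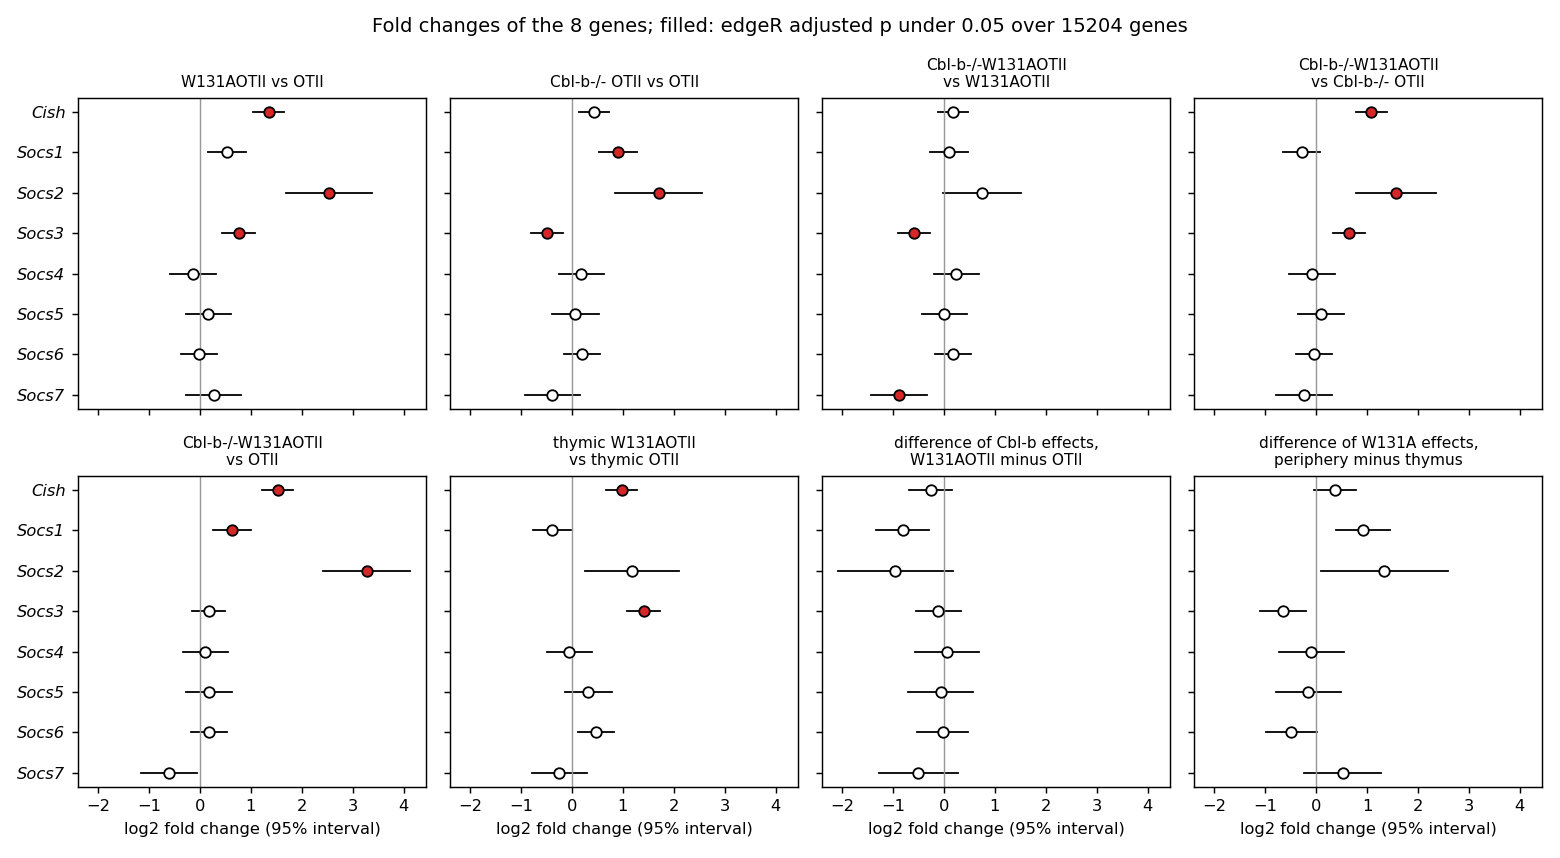
Log2 fold change (horizontal axis) of the 8 genes with its 95% interval in 6 comparisons of genotypes and 2 differences between effects; filled points have an edgeR adjusted p under 0.05. Cish is filled in each of the 4 panels where W131A cells stand against cells without W131A, and no point is filled in the last 2 panels.

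Whether loss of Cbl-b acted differently in W131A cells, and W131A differently in periphery and thymus, was tested on the difference of the effects. With edgeR 0 of 8 members passed for W131A and Cbl-b, where 0.631% of all genes were called (0.0395% higher, 0.592% lower), and 1 had an unadjusted p under 0.05. That was Socs1, whose rise with Cbl-b loss was 0.81 smaller on the log2 scale in W131A cells (difference -0.81, SE 0.24, unadjusted p = 0.0032, adjusted p = 0.1796, range 0.0238 to 0.6585 over 21 alternatives). DESeq2 and limma with voom weights also called 0. The corresponding difference was -0.26 for Cish (95% interval -0.68 to 0.16), -0.95 for Socs2 (-2.08 to 0.18) and -0.11 for Socs3 (-0.55 to 0.34). For W131A in periphery against thymus edgeR called 0 of 8, against 0.381% of all genes (0.296% higher, 0.0855% lower), and 4 had an unadjusted p under 0.05. DESeq2 called 1 and limma with voom weights 0. Of these, Socs1 had a W131A effect 0.92 higher in the periphery (SE 0.24, adjusted p = 0.1259, 0.0305 with DESeq2 and 0.0189 without thymic W131AOTII replicate 1, range 0.0064 to 0.2990). Socs3 had a W131A effect lower in the periphery (difference -0.65, SE 0.21, adjusted p = 0.2560, 0.0106 with GC and length offsets, range 0.0106 to 0.6193). The difference was largest for Socs2, at 1.34 (SE 0.57, edgeR unadjusted p = 0.0301, adjusted p = 0.4746). For Socs6 it was -0.48 (SE 0.23, edgeR unadjusted p = 0.0486, adjusted p = 0.5202).

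Around these inhibitors, the pathway's other genes were counted from 8 lists chosen with earlier results known. In W131AOTII against OTII cells 1.93% of all tested genes were called (1.68% higher, 0.250% lower). With so low a share, a count of 0 does not set a short list apart. Of 7 tested cytokines 2 rose, or 1 without OTII replicate 1 or 2. One was Lif, the gp130 cytokine leukaemia inhibitory factor, at 2.01 ± 0.525 against 0.105 ± 0.0617 CPM (SD, n = 3). OTII cells lay below the expression filter's cutoff of 0.349 CPM, so Lif was tested only because other groups were above it. Against OTII cells such a gene can be called higher but hardly lower. Of 22 receptors 3 rose, among them the IL-2 receptor chains Il2ra, at 71.1 ± 0.936 against 23.9 ± 0.327 CPM (log2 fold change 1.57, SE 0.16, adjusted p = 9.07e-06), and Il2rb, at 269 ± 48.8 against 55.2 ± 6.81 CPM (2.28, SE 0.25). Il2ra encodes CD25, on whose surface absence the cells were sorted. The edgeR test called 0 of 11 JAK kinases and STAT factors (2 at an unadjusted p under 0.05, 1 called by DESeq2, 0 by limma) and 0 of 9 other brakes (phosphatases, PIAS proteins, Usp18 and Sh2b3; 1 unadjusted, 1 by DESeq2, 0 by limma). It called 0 of 7 subunits of the SOCS box ligase (0 unadjusted) and 0 of 16 other SOCS box genes (3 unadjusted), and DESeq2 and limma called 0 of both. Of 15 IL-2 and STAT5 targets 3 rose (9 at an unadjusted p under 0.05, 5 called by DESeq2, 2 by limma), including Il2ra and Foxp3, the regulatory T cell factor, at 149 ± 11.6 against 31.3 ± 2.90 CPM (2.25, SE 0.20). Both genes are also among the 12 regulatory T cell markers. The 3 tools called 0 of 15 interferon targets (3 unadjusted). The median log2 fold change was 0.40 for the 8 family members, 0.42 for the receptors, 0.34 for the STAT5 targets, 0.10 for the interferon targets and -0.001 over all genes tested.

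Loss of Cbl-b in OTII cells, which raised Socs1, raised 10 of 15 interferon targets and lowered 0 (6 called without OTII replicate 3), with a median of 0.73 against 0.05 over all genes. Over all genes 8.21% were called in this comparison (5.22% higher, 2.99% lower). The interferon-induced GTPase Igtp was at 1510 ± 60.1 against 663 ± 31.8 CPM (1.19, SE 0.11, adjusted p = 1.06e-05), Gbp3 rose by 1.27 (SE 0.13) and Iigp1 by 1.88 (SE 0.24). Of 15 IL-2 and STAT5 targets 3 rose and 0 fell with Cbl-b loss (median 0.27). Of these 15, 9 had an unadjusted p under 0.05, and DESeq2 called 5 and limma 1. The edgeR count was 1 when any 1 OTII library or Cbl-b-/- OTII replicate 3 was left out. Gzmb, on that list, rose by 4.12 (SE 0.60, adjusted p = 4.50e-04) and held in all 15 alternatives. Of 7 tested cytokines 3 rose and 0 fell (1 called by DESeq2, 2 by limma, 1 without OTII replicate 1 or 3, 0 with only the groups compared). Among the 3 was Lif, which lay below the expression filter's cutoff in OTII cells and so could hardly be called lower. Of the 11 JAK and STAT genes 1 rose and 4 fell, 5 called in all. Leaving out OTII replicate 1, 2 or 3 gave 2, 2 or 1, and leaving out Cbl-b-/- OTII replicate 1 or 2 gave 3 or 1. Spsb1, a SOCS box protein that targets nitric oxide synthase, fell by 0.93 (SE 0.15) and the IL-15 receptor chain Il15ra rose by 0.74 (SE 0.14). Of the 7 ligase subunits that SOCS boxes recruit 2 rose, but 0 were called when any 1 OTII library or Cbl-b-/- OTII replicate 2 was left out, and 5 when Cbl-b-/- OTII replicate 3 was. In Cbl-b-/-W131AOTII against Cbl-b-/- OTII cells, where Socs1 was not called (-0.28, SE 0.17, adjusted p = 0.4167), 13 of 15 interferon targets fell (median -1.05 against -0.02 over all genes; 10 to 15 called over the alternatives). Over all genes 1.89% were called there (0.802% higher, 1.09% lower). Igtp fell by 1.12 (SE 0.11, adjusted p = 1.41e-05), and Usp18, the interferon-induced brake on the type I receptor, fell by 0.81 (SE 0.14). Il2ra (1.25, SE 0.16) and Foxp3 (1.43, SE 0.20) rose there beside Cish and Socs2.

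In Cbl-b-/-W131AOTII against W131AOTII cells, where Socs3 fell, 4 of 11 JAK and STAT genes and 3 of 9 other brakes fell and 0 rose, while 5 of 15 interferon targets fell and 1 rose. Over all genes 9.25% were called (3.18% higher, 6.08% lower), and the median log2 fold change was -0.34 for JAK and STAT genes, -0.35 for the other brakes and -0.24 for interferon targets against 0.03 over all genes. For JAK and STAT genes, leaving out W131AOTII replicate 2 or 3 gave 2 or 0, and leaving out Cbl-b-/-W131AOTII replicate 1, 2 or 3 gave 0, 1 or 2. For the other brakes, leaving out W131AOTII replicate 2 or Cbl-b-/-W131AOTII replicate 1 gave 1. Usp18 fell by 0.99 (SE 0.14, adjusted p = 5.52e-04), the IL-21 receptor Il21r by 0.80 (SE 0.12) and Spsb1 by 0.96 (SE 0.14), each in all 15 alternatives. Markers lower there were 8 of 9 for B cells, 3 of 7 for naive T cells, 2 of 8 for myeloid cells and 1 of 6 for CD4 T cells. Naive T cell markers summed to 8173 to 8550 CPM against 10010 to 11308 CPM in W131AOTII libraries. Of the immature thymocyte markers 1 of 6 and of the CD8 markers 1 of 2 were lower, and 1 of 12 regulatory T cell markers was higher. The part of these markers in the falls of Socs3 and the listed genes was not tested. In thymic W131AOTII against OTII cells, 3 of 22 receptors rose and 1 fell, or 2 called in all without thymic OTII replicate 1 or 3 or thymic W131AOTII replicate 3. Over all genes 2.77% were called in that comparison (1.73% higher, 1.04% lower). Il2ra rose by 1.36 (SE 0.16) to 35.5 ± 5.51 CPM, Foxp3 by 1.22 (SE 0.20) and Spsb1 by 0.80 (SE 0.14), while 2 of 15 interferon targets fell (0 without thymic OTII replicate 3 and 1 without thymic W131AOTII replicate 3).

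**Figure D4:**
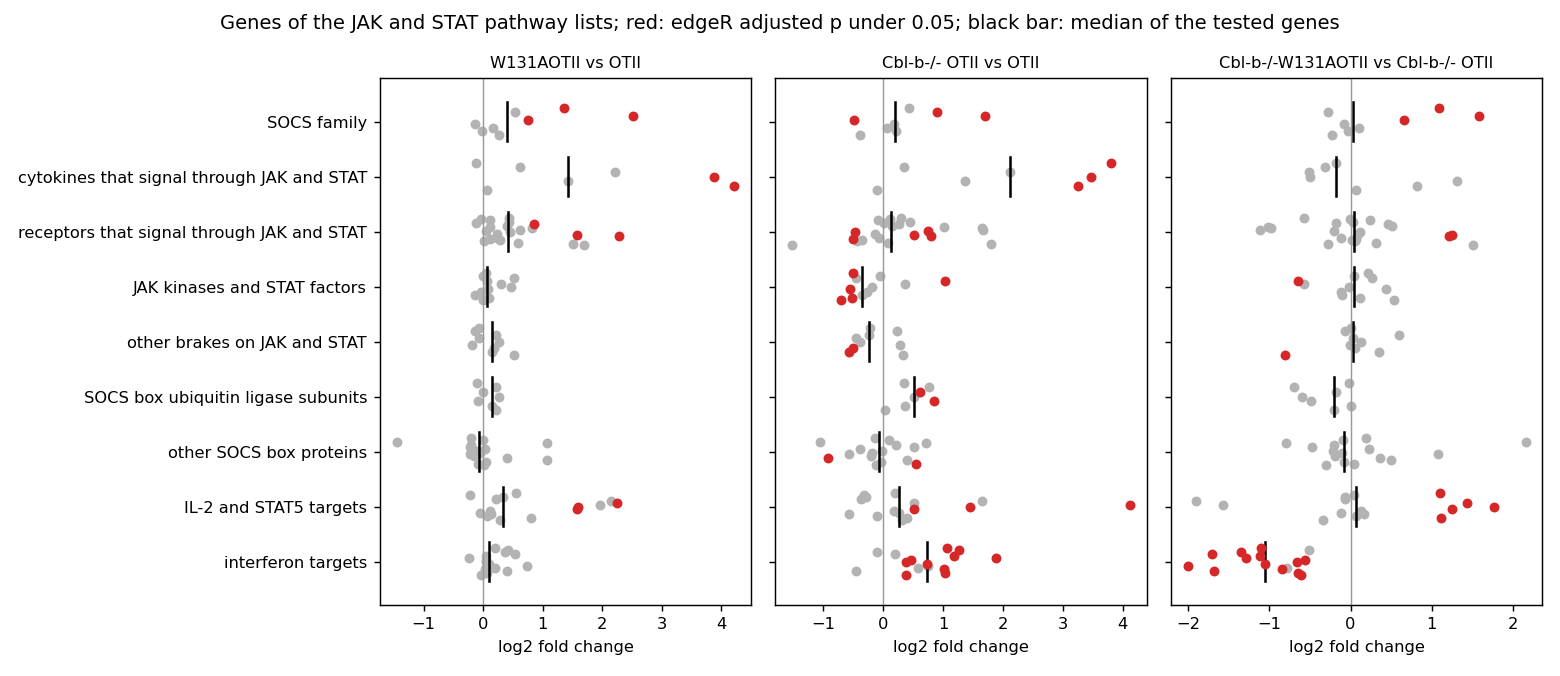
Log2 fold change of each tested gene in 9 lists in 3 peripheral comparisons; points in red have an edgeR adjusted p under 0.05 and the black bar is a list's median. Interferon targets sit to the right with Cbl-b loss (median 0.73) and to the left with W131A in cells without Cbl-b (median -1.05).

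Genes most like each member were ranked by Pearson r of log2 CPM over the 18 libraries among 11644 protein-coding genes. The libraries share 6 groups and 2 tissues, so r mainly follows the group means, and it is given as a description. Cish was most like Nt5e, the ectonucleotidase CD73 (r = 0.950), Wdfy1 (0.939), Prg4 (0.938), Lrrc32 (0.934) and Acsbg1 (0.925). Socs2 was most like Klhdc2 (0.964), Hopx (0.961), Rln3 (0.939), Gsap (0.922) and Il2ra (0.922). Socs3 was most like Prf1 (0.988), the gene of perforin, and Dse (0.974), both following the tissue difference. Values were lower for Socs1 (Manf, 0.869), Socs4 (Arf4, 0.821) and Socs5 (Zfp365, 0.752), and were 0.907 for Socs6 (Tmed7) and 0.925 for Socs7 (Ccnd2). Among the members, Cish and Socs2 had r = 0.831, Socs2 and Socs3 0.737, Cish and Socs3 0.556 and Cish and Socs1 0.080.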

How the data were processed

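The authors deposited whole-number read counts for each Ensembl gene, not normalized. Per the labels' protocols, total RNA was sequenced as single-end reads of 50 bases, and per the submitters' processing notes STAR 2.7.2, GRCm38 and DESeq2 were used. The counting step, strand setting and annotation release were not found there. Of 55536 identifiers, all matched GENCODE M21, and 25739 were at 0 in every library.

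All 18 libraries entered 1 edgeR 4.0.16 fit (R 4.3.3) with a mean per group, TMM factors and 12 residual degrees of freedom. filterByExpr (minimum count 10) left 15204 genes. Contrasts used its robust quasi-likelihood F test, and p-values were adjusted by Benjamini-Hochberg over these genes (threshold 0.05). SE is the size of the log2 fold change divided by the square root of the F value. The 95% intervals use a t distribution with 12 degrees of freedom. The F test itself uses more, so the intervals are wider than the test's own. For Socs2 with Cbl-b loss in W131A cells the interval reached -0.01 at an unadjusted p of 0.0444 in the F test. The fit was tested on simulated data. Log2 CPM used a prior count of 2, and RPKM divides CPM by joined exon length. DESeq2 1.42.0 and limma 3.58.1 with voom were alternatives.

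The members, lists and tests were chosen with earlier results of these data known. The named genes were the members, Cblb, up to 3 called genes of each list with the smallest adjusted p, of which mainly those called in all alternatives are given, and up to 5 genes most like a member. The lists held 17 cytokines and 27 SOCS box genes, of which 7 and 16 were tested. One result is not reported here. Replicate numbers were not used to pair libraries, so the tests treat all libraries as unpaired. No source used here says whether thymic and peripheral libraries came from the same animals. Gene GC content came from transcripts. Overlapping genes held at most 18 counts in all.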

Additional observations from a re-analysis of the deposited data

How the results depend on the processing

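Each comparison between 2 groups was refitted under 15 alternatives and each difference between effects under 21. Of 330 refitted values of called members, 277 kept the call, 53 lost the threshold and 0 changed sign. Of 966 refitted values that were not called, 15 passed and 55 changed sign. For Cbl-b-/-W131AOTII against W131AOTII cells the number of members called was 2, and it was 1 with library size alone, 1 with offsets for GC content and length and 0 without the 3 libraries set apart. For peripheral against thymic W131AOTII cells it was 4, and 2 with no filter on low counts, 2 without the 3 libraries and 2 with only the groups compared. For the interaction of W131A and Cbl-b loss it was 0, and 1 with no filter. For the W131A effect in periphery against thymus it was 0, and 1 with no filter, 1 with DESeq2 and 2 with GC and length offsets. When 1 library was left out, the count ran from 1 to 2 for Cbl-b loss (3 with all), 0 to 2 for Cbl-b loss in W131A cells, 1 to 3 for W131A in cells without Cbl-b (3 with all), 2 to 4 for W131AOTII periphery against thymus and 0 to 1 for W131A in periphery against thymus. It was 2 in each case for cells with both changes against OTII cells (3 with all). Leaving out 1 library moved neither the count for W131A in the periphery (3) nor that in the thymus (2). With no filter, and with only the groups compared, the count in the periphery was 4.

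The replicate number as a block gave 1 member called for Cbl-b-/-W131AOTII against W131AOTII cells, where Socs7 was at an adjusted p of 0.0537, and the block also ended the call of Socs3 with Cbl-b loss in OTII cells (0.0558). Correlations of same-numbered libraries ran from -0.304 to 0.205, and in no comparison was every library most like its own number.

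Calls over all genes moved more: 293 for W131A in the periphery became 772 with no filter and 147 without OTII replicate 3, and 1407 for Cbl-b loss in W131A cells became 253 without the 3 libraries and 124 without Cbl-b-/-W131AOTII replicate 1. The 1249 for Cbl-b loss in OTII cells became 2069 with DESeq2 and 150 without OTII replicate 3. Library size alone moved the median of all genes to 0.18 for Cbl-b loss in W131A cells and 0.16 for both alleles against OTII cells, and no called member changed direction with it. Depth limits Socs2 most, at 4 to 42 counts in thymic libraries.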
